A study of Mus musculus with 27 samples.

Results

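The Obox genes are oocyte-specific homeobox genes of the mouse, each encoding a protein with a homeodomain, the DNA-binding fold shared by homeobox transcription factors. The members described here are the named Obox genes of the count table that covers all 9 groups of the study: Obox1, Obox2, Obox3, Obox5, Obox6, Obox7 and Obox8, which are 7 of 55367 gene rows. A further 48 rows carry Obox pseudogene symbols, 8 of them Obox3-ps, 39 Obox4-ps and 1 Obox6-ps, and they are reported beside the members. The study sequenced polyadenylated RNA from pools of 15 to 20 wild-type mouse embryos grown in KSOM medium and collected as morulae (E2.75), and it concerns a microRNA and the epigenetic timing of cell fate transitions. Its 27 libraries form 9 groups of 3. In the inhibitor family, embryos were held from day 2.5 with SAHA, A485, TSA or Vehicle, at doses that the file headers give as 500 nM (SAHA), 10 uM (A485) and 50 nM (TSA). SAHA and TSA block histone deacetylases, and A485 blocks the acetyltransferases p300 and CBP. In the siRNA family, zygotes were injected at day 0.5 with siP300, siKat6a, siKat6b, siComb or siControl, where the first 3 target the acetyltransferase genes Ep300, Kat6a and Kat6b and the labels do not say what siComb contained. The pools of a group are called biological replicates, but nothing says that they were collected separately, so each p-value is set against a spread between samples of 1 group that may be technical.

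As background, Obox transcripts are known from the oocyte and from the embryo around the first wave of zygotic transcription. Obox1, Obox2, Obox5 and Obox7 are known as maternal transcripts and Obox3 as a zygotic one, while Obox6 is known for expression that continues through the cleavage stages. Mouse embryos that lack several Obox genes are known to fail at activating their genome, and Obox3 and Obox4 proteins are known to switch on the retrovirus MERVL and the genes that share its burst of expression in the 2-cell embryo. That burst has normally ended well before the morula stage. Because each library is a pool of whole embryos, fewer expressing cells and less RNA per expressing cell cannot be told apart in any value that follows.

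All 7 members lie on chromosome 7 of GRCm38 in the GENCODE annotation, within a stretch from 14331436 to 15839678 that holds 53 of the Obox rows. From one end to the other the members are Obox8 (14331436 to 14333557, minus strand), Obox7 (14659496 to 14665996, plus strand), Obox2 (15388721 to 15398545, plus strand), Obox1 (15388948 to 15556866, plus strand), Obox3 (15479825 to 15639902, minus strand), Obox5 (15750131 to 15759800, plus strand) and Obox6 (15833241 to 15839678, minus strand). The RefSeq promoter table of GRCm38.p6 matched 5 of the 7 members, and Obox6 and Obox8 were not among them. Those promoters are printed here because Obox1, Obox3, Obox5 and Obox7 are the members whose own highest group mean was in TSA, a grouping made after their values were seen, and because these promoters share a run of bases. Each window covers 250 bases before and 50 bases after the annotated start, read 5′ to 3′ on the gene's strand. Capitals mark the longest run of bases common to those 4 promoters, which is 42 bases long.
Obox1 chr7:15547007-15547306 (+): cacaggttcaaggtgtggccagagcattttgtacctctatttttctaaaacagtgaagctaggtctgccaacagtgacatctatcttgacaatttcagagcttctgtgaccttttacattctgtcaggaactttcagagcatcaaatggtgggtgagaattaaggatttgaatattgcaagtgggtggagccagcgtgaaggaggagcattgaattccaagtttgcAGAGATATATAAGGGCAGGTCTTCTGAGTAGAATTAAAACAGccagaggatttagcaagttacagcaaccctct
Obox3 chr7:15639728-15640027 (-): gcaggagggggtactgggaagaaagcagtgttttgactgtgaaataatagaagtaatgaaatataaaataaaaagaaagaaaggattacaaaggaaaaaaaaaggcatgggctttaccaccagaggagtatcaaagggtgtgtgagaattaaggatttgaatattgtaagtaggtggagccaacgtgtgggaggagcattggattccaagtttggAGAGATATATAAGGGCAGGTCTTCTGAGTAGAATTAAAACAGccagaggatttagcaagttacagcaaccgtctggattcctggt
Obox5 chr7:15750120-15750419 (+): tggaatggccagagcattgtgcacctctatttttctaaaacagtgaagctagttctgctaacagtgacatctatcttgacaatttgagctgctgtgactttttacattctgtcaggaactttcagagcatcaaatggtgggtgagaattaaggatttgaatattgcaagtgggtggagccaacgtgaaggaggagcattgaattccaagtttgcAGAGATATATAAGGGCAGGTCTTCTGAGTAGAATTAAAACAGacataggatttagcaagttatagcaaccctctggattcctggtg
Obox7 chr7:14659458-14659757 (+): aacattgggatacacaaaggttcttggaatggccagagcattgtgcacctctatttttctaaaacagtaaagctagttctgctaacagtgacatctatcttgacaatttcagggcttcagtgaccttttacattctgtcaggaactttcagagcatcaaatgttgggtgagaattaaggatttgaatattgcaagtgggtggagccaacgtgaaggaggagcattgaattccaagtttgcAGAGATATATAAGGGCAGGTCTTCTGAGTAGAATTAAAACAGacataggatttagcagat
Obox2 chr7:15388601-15388900 (+): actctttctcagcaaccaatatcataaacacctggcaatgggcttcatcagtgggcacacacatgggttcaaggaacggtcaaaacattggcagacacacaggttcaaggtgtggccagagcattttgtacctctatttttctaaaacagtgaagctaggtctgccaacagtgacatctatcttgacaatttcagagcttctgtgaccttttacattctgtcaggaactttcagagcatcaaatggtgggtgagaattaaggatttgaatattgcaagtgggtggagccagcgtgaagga

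By its definition the capitalised run lies in the promoters of Obox1, Obox3, Obox5 and Obox7. The run was found in 4 of the 32851 promoters of the table, these and no others. It lay across the annotated start in each, from base -24 to 18 in Obox1, from -35 to 7 in Obox3, from -36 to 6 in Obox5 and from -10 to 32 in Obox7. The Obox2 window lacked the run, but its last 203 bases aligned to the Obox1 window with 203 of 203 bases identical, so the 2 windows are offset copies of one sequence. The Obox2 window ends before the place where the run begins in Obox1, so its lack of the run is not a difference in sequence. Over all pairs of the 5 promoters, local alignments were 88.1 to 100% identical, over 67 to 285 aligned columns. The homeodomain core GGATTA, searched on both strands, was found in the Obox3 window alone, at -168 to -163, and in 7.06% of all promoters of the table. The letters TATAAA were likewise found in Obox3 alone, at -189 to -184, and in 13.6% of all promoters, and the binding motif of Dux was found in none of the 5 and in 0.207% of all promoters. Only the exact letters TATAAA were searched. The capitalised run of Obox1, Obox3, Obox5 and Obox7 holds the near match TATATAAG, whose share of all promoters was not counted. A match is a description of the letters, and the absence of one says nothing of which factor binds.

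The near-identity of the family also bears on what a count means. Of the stretches of 50 bases in the annotated Obox1 transcripts, 42.6% occur in no other gene's transcripts, and 56.4% recur in Obox2. The corresponding unique shares were 34.9% for Obox2, 79.8% for Obox3, 81.9% for Obox5, 78.9% for Obox7, 95.0% for Obox6 and 100% for Obox8. Obox1 and Obox2 also overlap by 59 bases of exon. Their counts are therefore uncertain in how reads are divided between them, while Obox6 and Obox8 are the most separable members.

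Libraries held 7557591 to 11988857 counts, and levels are given as CPM, counts scaled to the library's total over gene rows. A member is said to have risen or fallen where edgeR's quasi-likelihood test, fitted across all genes of its family of libraries, gave a Benjamini-Hochberg adjusted p under 0.05. Morula markers were present, with 11 of 12 above 0 in each group other than A485, Sox2 at 0 throughout, and Cdx2 and Tdgf1 also at 0 in A485. Their summed level was 1285 to 1337 CPM in SAHA, 2036 to 2902 CPM in A485 and 657 to 772 CPM in TSA, against 3259 to 4176 CPM in Vehicle, and of 11 tested 9 fell with SAHA, 9 with A485 and 11 with TSA. The median log2 change of those 11 was -1.49 with SAHA, -3.84 with A485 and -3.21 with TSA. The sum, in which abundant genes weigh most, thus orders the inhibitors differently from the median. The summed level was 1389 to 1701 CPM in the libraries labelled siP300 and 1313 to 1588 CPM in siComb, against 1868 to 2329 CPM in siControl. Of 11 tested, 8 fell in the libraries labelled siP300, 9 in siComb and 0 in siKat6a and siKat6b. Summed blood markers were 22.1 to 23.8 CPM in SAHA, 33.5 to 62.2 CPM in A485 and 44.0 to 83.2 CPM in TSA, against 14.6 to 20.7 CPM in Vehicle. Summed blood markers were 74.99 to 200 CPM in libraries labelled siP300 and 126 to 187 CPM in siComb, against 6.99 to 8.81 CPM in siControl, and summed cumulus and granulosa markers were 14.9 to 29.9 CPM and 10.7 to 26.2 CPM in those groups, against 1.34 to 2.32 CPM in siControl. Oviduct and stroma markers summed to 4.48 to 9.68 CPM and 5.48 to 10.9 CPM there, against 2.08 to 2.61 CPM in siControl, although several genes of these lists were at 0. Hbb-bs was at 0 in every library. Ptprc, Fshr, Col1a2, Col3a1 and Lum were at 0 in the libraries labelled siP300, and Amh, Foxj1, Col1a2, Dcn and Lum in siComb. Of the siRNA targets, Ep300 was at 19.7, 12.9 and 35.9 CPM in the libraries labelled siP300, against 22.0, 22.8 and 26.96 CPM in siControl, so its level does not separate those libraries from the controls (log2 -0.43 ± 0.29, edgeR adjusted p = 0.259). Kat6a was at 12.4, 10.6 and 12.9 CPM in siKat6a, against 17.6, 15.3 and 15.3 CPM in siControl, and Kat6b was at 66.1, 79.6 and 82.5 CPM in siKat6b, against 97.5, 108 and 107 CPM in siControl. Neither of these sets overlapped, although the edgeR adjusted p was 1 for Kat6a and 0.495 for Kat6b. In siComb Kat6a (log2 -0.64 ± 0.20, edgeR adjusted p = 0.0220) and Kat6b (log2 -1.03 ± 0.28, adjusted p = 0.00819) fell, without overlap with siControl. Ep300 did not pass in siComb (log2 -0.15 ± 0.29, adjusted p = 0.722). With edgeR's scaling the median log2 change of all genes was 0.13 for the libraries labelled siP300 and 0.09 for siComb, and with library size alone it was 0.45 for the libraries labelled siP300, 0.35 for siComb and 0.13 for siKat6b. TSA stood at 0.08 with edgeR's scaling and 0.22 with DESeq2 size factors.

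**Figure D1:**
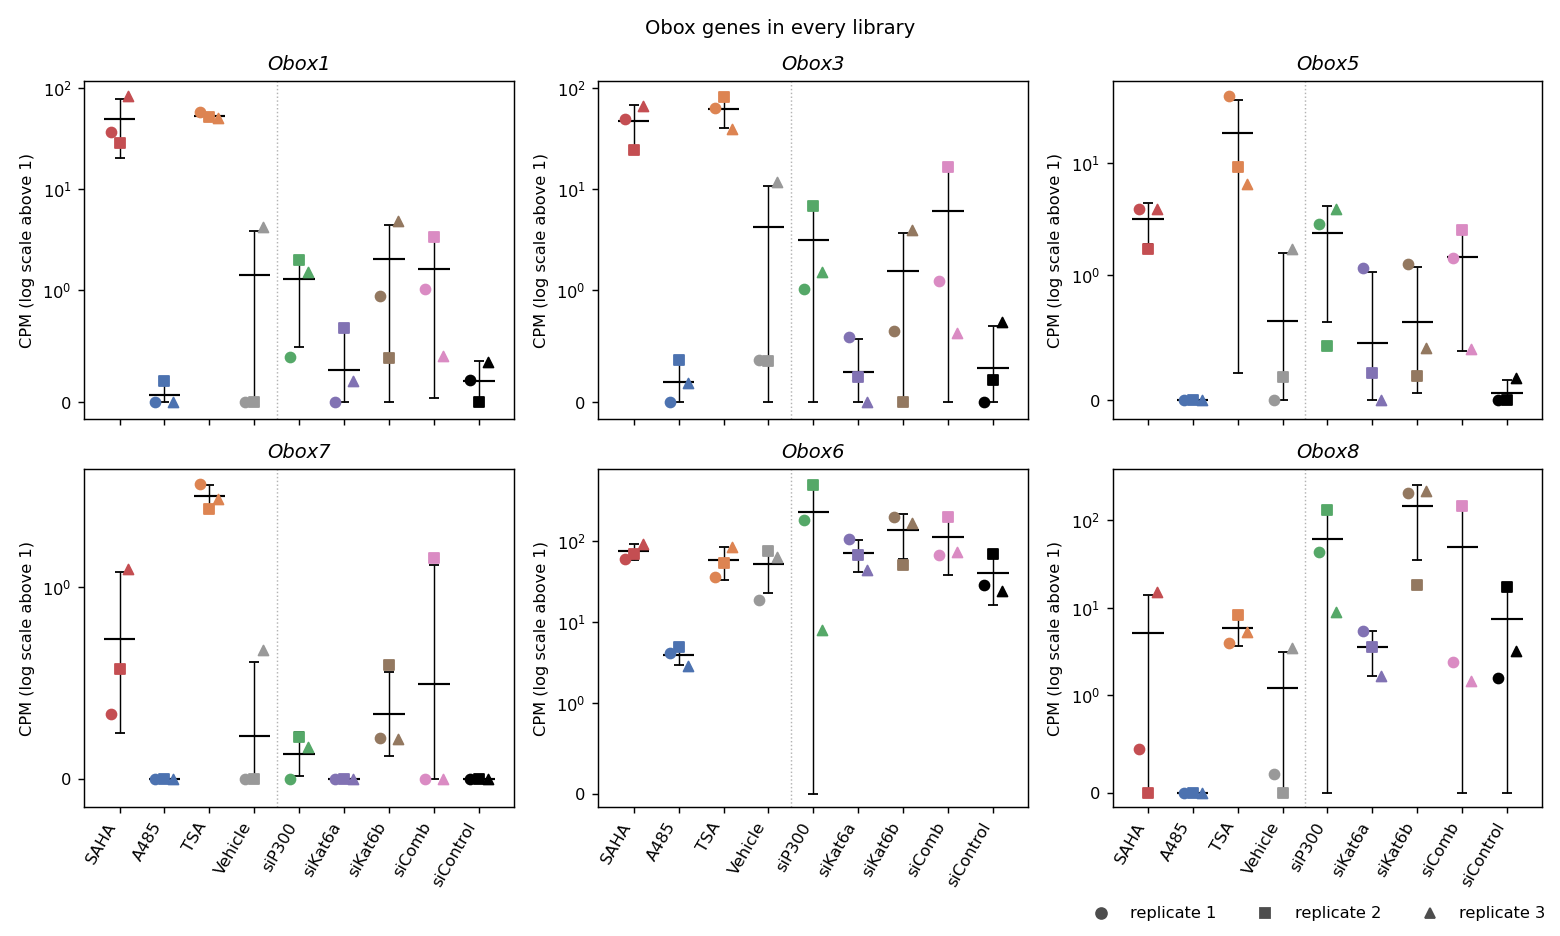
Level of 6 Obox genes in each of the 27 libraries, in CPM on an axis that is linear up to 1 and logarithmic above it. Each point is a library, bars are the mean and lines the SD of 3 (cut at 0), and the dotted line parts the inhibitor from the siRNA family. Obox1 and Obox3 stand at 24.1 CPM or more in every SAHA and TSA library, Obox6 is low in the 3 A485 libraries, and Obox8 is above 100 CPM in 4 libraries of the siRNA family alone.

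The family split into unlike patterns over the 9 groups. Obox1, Obox3, Obox5 and Obox7 had their highest group means in TSA and their next highest in SAHA. Obox6 was present in all 27 libraries and had its highest mean in the libraries labelled siP300, and Obox8 had its highest mean in siKat6b. Obox2 had 0 counts in all 27 libraries, out of 269820547 counts, which allows at most 0.0111 CPM at 3 counts, a limit that covers counting error only and does not account for reads assigned to Obox1. Of the 7 members, 6 passed the low-count filter among inhibitor libraries, and 5 passed it among siRNA libraries, where Obox7 did not.

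Among the members known as maternal transcripts, Obox1 was at 36.6, 28.6 and 82.4 CPM in SAHA and at 57.4, 50.9 and 49.9 CPM in TSA, against 0, 0 and 4.21 CPM in Vehicle. Every library of either inhibitor was above every Vehicle library, and Obox1 rose by log2 5.15 ± 0.88 with SAHA (edgeR adjusted p = 0.000534) and by 5.31 ± 0.89 with TSA (adjusted p = 0.000162). Vehicle replicate 3 held all 44 of the Obox1 counts in Vehicle. Without it the remaining controls had 0 counts and the adjusted p was 2.45e-07 with SAHA and 1.03e-07 with TSA, and over the alternatives the log2 change was at least 4.52 with SAHA and 4.70 with TSA.

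Obox5 was at 3.84, 1.71 and 3.84 CPM in SAHA, against 0, 0.182 and 1.72 CPM in Vehicle. The lowest SAHA library was just below the highest Vehicle library, and the SAHA change did not pass the test (log2 2.30 ± 0.99, adjusted p = 0.0916), although without Vehicle replicate 3 it did (4.95, adjusted p = 0.00541). Obox5 was at 38.9, 9.18 and 6.51 CPM in TSA, all above Vehicle, and rose by log2 4.89 ± 1.00 (adjusted p = 0.00119). TSA replicate 1 stood well above the other TSA libraries for Obox5, which was not so for Obox1.

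Obox7 was the scarcest member with counts. It was at 0.339, 0.570 and 1.28 CPM in SAHA, against 0, 0 and 0.669 CPM in Vehicle, values that overlap (log2 1.68 ± 1.11, adjusted p = 0.267). It was at 3.97, 2.85 and 3.25 CPM in TSA, above every other library of the series, and it rose by log2 3.93 ± 1.09 (adjusted p = 0.00823). Without Vehicle replicate 3, whose removal leaves the controls at 0 counts, Obox7 passed the test with SAHA also (adjusted p = 0.0160).

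The zygotic member Obox3 rose with both inhibitors also. It was at 48.6, 24.1 and 65.7 CPM in SAHA and at 62.6, 81.0 and 39.2 CPM in TSA, against 0.377, 0.365 and 11.7 CPM in Vehicle. Neither inhibitor group overlapped Vehicle, and Obox3 rose by log2 3.49 ± 0.86 with SAHA (adjusted p = 0.00618) and by 3.95 ± 0.87 with TSA (adjusted p = 0.00143). Vehicle replicate 3 was 31.4 times the mean of the other 2 Vehicle libraries, and without it the changes were 6.97 and 7.43.

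SAHA at 500 nM and TSA at 50 nM are set side by side here and were not tested against each other, since the doses differ. With SAHA 2 of the 6 tested members rose and none fell, where 20.2% of all 18299 genes tested rose and 34.2% were called in either direction. With TSA 4 of 6 rose and none fell, where 31.6% of all genes rose and 58.2% were called. Groups that did not overlap were found, with the treated group higher, for 2 of 6 members with SAHA, where 28.6% of all genes did so, and for 5 of 6 with TSA, where 34.4% did. With the treated group lower they were found for 0 of 6 members with either, where 25.4% of all genes did so with SAHA and 34.1% with TSA. As to falls, 14% of all genes fell with SAHA and 26.6% with TSA. The median log2 change of the 6 tested members was 2.21 with SAHA, against 0.06 over all genes, and 3.94 with TSA, against 0.08 over all genes. A member could pass the filter through the treated libraries alone, so these counts and medians describe those 6 and not the family.

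Obox6, the member of the cleavage stages, did not pass the test with either inhibitor. It was at 60.8, 68.9 and 92.8 CPM in SAHA and 36.0, 53.3 and 85.3 CPM in TSA, against 18.8, 74.5 and 63.9 CPM in Vehicle. Both inhibitor groups overlapped Vehicle, and the log2 changes were 0.51 ± 0.41 with SAHA (adjusted p = 0.366) and 0.24 ± 0.41 with TSA (adjusted p = 0.642), the TSA change taking the opposite sign without Vehicle replicate 1 (-0.18) or TSA replicate 3 (-0.17). Obox8 did not pass either. It was at 0.452, 0 and 15.1 CPM in SAHA and 3.97, 8.19 and 5.30 CPM in TSA, against 0.189, 0 and 3.44 CPM in Vehicle. SAHA replicate 3 carried 142 of the 146 Obox8 counts of its group, and without it the SAHA change had the opposite sign (log2 -2.45, against 2.13 ± 1.49 with it, adjusted p = 0.292). The TSA libraries all exceeded the Vehicle libraries in Obox8, but the change did not pass the test (log2 2.34 ± 1.49, adjusted p = 0.198). Without Vehicle replicate 3, Obox8 was called with both inhibitors.

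**Figure D2:**
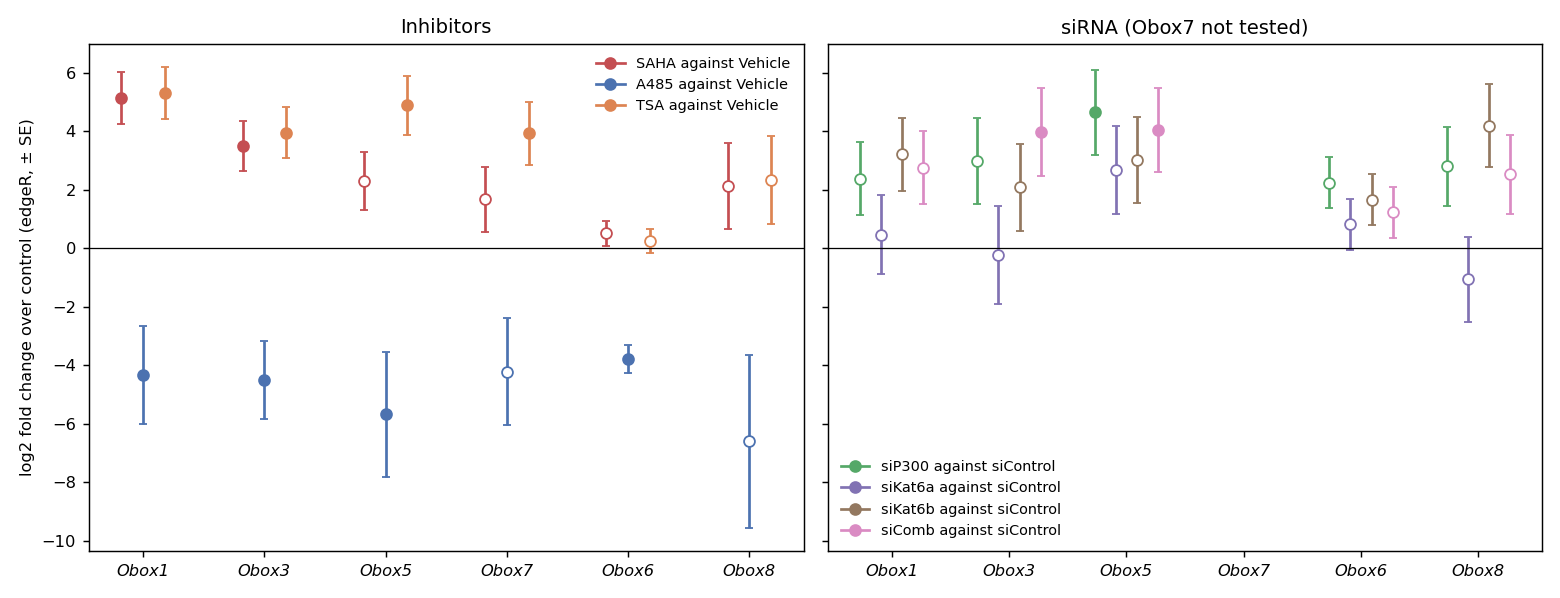
Log2 fold change over the control of each tested Obox gene (edgeR, points with SE), with inhibitors against Vehicle on the left and siRNA against siControl on the right. Filled points passed an adjusted p of 0.05 and open points did not. Obox6 and Obox8 lie nearer to 0 than Obox1 with SAHA and TSA, all 6 tested members lie below 0 with A485, and the A485 points of Obox5, Obox7 and Obox8 come from groups with 0 counts, where the fitted size depends on the prior count.

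With A485, the inhibitor of p300 and CBP, Obox6 fell. It was at 4.16, 4.88 and 2.90 CPM in A485, against 18.8, 74.5 and 63.9 CPM in Vehicle, which do not overlap, and it fell by 3.78 ± 0.48 on the log2 scale (edgeR adjusted p = 2.46e-05). That call held in all 13 alternatives, with an adjusted p of at most 0.000295. Obox6 was the most abundant member in these libraries, with 34 to 52 counts per A485 library.

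The other members were at or near 0 in A485 and close to it in Vehicle replicates 1 and 2. Obox1 had 0, 2 and 0 counts in A485, against 0, 0 and 44 in Vehicle, and Obox3 had 0, 4 and 2 counts in A485, against 4, 4 and 122 in Vehicle. Both fell by the test (adjusted p = 0.0485 for Obox1 and 0.0137 for Obox3), as did Obox5 (adjusted p = 0.0470), which had 0 counts in each A485 library against 0, 2 and 18 in Vehicle and was at least 7.17-fold lower at a floor of 3 counts over the group. Obox7 and Obox8 also had 0 counts in all A485 libraries, at least 2.52-fold and 13.7-fold lower, and did not pass (adjusted p = 0.0789 and 0.0876).

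In total 4 of 6 tested members fell and none rose with A485, where 24.2% of all genes fell, 21.4% rose and 45.5% were called in all. The call of Obox6 held without any 1 library, and those of Obox1, Obox3 and Obox5 did not. Without Vehicle replicate 3 Obox6 alone was called, with adjusted p of 0.441 for Obox1, 0.461 for Obox3 and 0.305 for Obox5, and the Obox1 change took the opposite sign against controls at 0 counts. Without A485 replicate 1 Obox6 alone was called, and without A485 replicate 2 or 3 Obox3 and Obox6 were. Groups that did not overlap were found, with A485 lower, for Obox6 alone among the members and for 26.4% of all genes, and with A485 higher for 0 members and for 26.2% of all genes. The median log2 change of the 6 tested members was -4.42, or -3.77 with the 3 genes at 0 set to their bound, against -0.06 over all genes. Members could pass the filter through the SAHA and TSA libraries alone, so these counts and medians describe those 6 and not the family.

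Vehicle replicate 3 stood apart in MERVL-int, the internal sequence of MERVL, as well. MERVL-int was at 4517, 2181 and 4569 CPM in SAHA, at 8.50, 16.2 and 5.55 CPM in A485 and at 9742, 8393 and 9195 CPM in TSA, against 12.54, 14.3 and 245 CPM in Vehicle. The MERVL-int level of Vehicle replicate 3 moves with its Obox1, Obox3, Obox5 and Obox8 levels, and its part in the results was not tested.

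In the siRNA family Obox6 and Obox8 were the abundant members, and Obox1, Obox3, Obox5 and Obox7 were each at 16.3 CPM or less in every library. Obox8 was at 42.8, 131 and 8.84 CPM in the libraries labelled siP300, at 202, 17.9 and 212 CPM in siKat6b and at 2.43, 145 and 1.44 CPM in siComb, against 1.58, 17.2 and 3.22 CPM in siControl. Replicate 2 of siP300, replicates 1 and 3 of siKat6b and replicate 2 of siComb each exceeded 100 CPM, while the other libraries of these groups were at 1.44 to 42.8 CPM. The siKat6b libraries were all above siControl, and the other groups overlapped it. The Obox8 changes did not pass the test, at log2 2.81 ± 1.36 for siP300 (edgeR adjusted p = 0.116), 4.19 ± 1.42 for siKat6b (0.286) and 2.53 ± 1.35 for siComb (0.151). In siComb the sign was carried by replicate 2, without which the log2 change was -2.19 (adjusted p = 0.198).

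Obox6 was at 182, 492 and 8.01 CPM in the libraries labelled siP300, against 29.0, 68.7 and 24.2 CPM in siControl. Replicate 3 was below every siControl library and the other 2 were above them all, and the log2 change of 2.25 ± 0.89 did not pass (adjusted p = 0.0576), though it did without that replicate (2.82, adjusted p = 0.00398). Obox6 was at 198, 49.9 and 167 CPM in siKat6b and 66.5, 199 and 72.6 CPM in siComb, with log2 changes of 1.67 ± 0.87 (adjusted p = 0.535) and 1.23 ± 0.87 (adjusted p = 0.280). Both overlapped siControl, whose replicate 2 had the highest Obox6 and the highest Obox8 of its group.

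The less abundant members gave the calls that did pass. Obox5 was at 2.84, 0.437 and 3.84 CPM in the libraries labelled siP300 and at 1.42, 2.53 and 0.411 CPM in siComb, against 0, 0 and 0.179 CPM in siControl. Neither set overlapped the controls, and Obox5 rose by log2 4.65 ± 1.45 in siP300 (adjusted p = 0.0200) and by 4.05 ± 1.45 in siComb (adjusted p = 0.0372). These are changes from 2 counts in all of siControl, and the siP300 call was lost without siControl replicate 1 (adjusted p = 0.0771), siControl replicate 2 (0.0742) or siP300 replicate 3 (0.0598), while the log2 change was 4.14 or more in every alternative. In siComb it was lost without siControl replicate 1 (0.119), siControl replicate 2 (0.117), siComb replicate 1 (0.0623) or siComb replicate 2 (0.114), with a log2 change of 3.35 or more in every alternative.

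Obox3 was at 1.21, 16.3 and 0.616 CPM in siComb, against 0, 0.194 and 0.717 CPM in siControl, and rose by log2 3.99 ± 1.499 (adjusted p = 0.0458) with groups that overlap. Replicate 2 was 17.9 times the mean of the other siComb libraries, and without it the change was 1.23 (adjusted p = 0.565). The call was also lost without any 1 of the 3 siControl libraries (adjusted p = 0.142, 0.131 and 0.0535). In the libraries labelled siP300 Obox3 was at 1.01, 6.77 and 1.501 CPM (log2 2.99 ± 1.48, adjusted p = 0.124). Obox1 reached 0.405, 1.97 and 1.501 CPM there and 1.01, 3.37 and 0.411 CPM in siComb, against 0.198, 0 and 0.358 CPM in siControl, with adjusted p of 0.146 and 0.0938.

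With siKat6b, Obox1 was at 0.947, 0.394 and 4.76 CPM, against 0.198, 0 and 0.358 CPM in siControl, and Obox5 was at 1.26, 0.197 and 0.414 CPM, against 0, 0 and 0.179 CPM in siControl. Neither overlapped siControl and neither passed the test, at log2 3.21 ± 1.26 for Obox1 (adjusted p = 0.358) and 3.01 ± 1.48 for Obox5 (adjusted p = 0.496). The lowest siKat6b library and the highest siControl library held equal counts, 4 each of Obox1 and 2 each of Obox5. These separations therefore rest on library size. Obox3, at 0.631, 0 and 3.93 CPM in siKat6b, overlapped siControl. Obox7, which was not tested here, was at 0 in every siControl and siKat6a library and reached 1.48 CPM in siComb replicate 2.

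Counted over the 5 tested members, 1 rose in the libraries labelled siP300, where 19.7% of all 19182 genes tested rose and 35.4% were called, so the share of members called was near the background. In siComb 2 of 5 rose, where 19.6% of all genes rose and 36.7% were called. In siKat6b 0 of 5 were called by edgeR, where 0.0209% of all genes were, with 2 members at an unadjusted p under 0.05 and 0 called by DESeq2. In siKat6a 0 of 5 were called by edgeR, where 0% of all genes were, with 0 members at an unadjusted p under 0.05 and 0 called by DESeq2. Genes that rose made up 0.0104% of all genes in siKat6b and genes that fell 0.0104%, and 15.6% of all genes fell in the libraries labelled siP300 and 17.1% in siComb. Groups that did not overlap, with the treated group higher, were found for 3 of 5 members in the libraries labelled siP300, where 35.3% of all genes did so, for 3 of 5 in siKat6b, where 11.8% did, for 2 of 5 in siComb, where 34.8% did, and for 0 of 5 in siKat6a, where 5.6% did. With the treated group lower there were 0 of 5 in each, where 12.9% of all genes did so in the libraries labelled siP300, 5.68% in siKat6b, 17.4% in siComb and 4.18% in siKat6a. Some separations with the treated group higher were narrow. For Obox1 the lowest library of siP300, siKat6b and siComb and the highest of siControl held 4 counts each. Obox8 in siKat6b was separated by 182 against 178 counts. The comparisons share the siControl libraries, so their calls are not separate evidence. Obox1, Obox3 and Obox5 had at most 8 counts in any siControl library, which left little room for a fall. They could pass the filter through other libraries alone, so these counts describe the 5 members that passed and not the family. The share of counts from mitochondrial genes was 4.94 to 6.99% in the libraries labelled siP300 and 4.86 to 5.41% in siComb, against 1.94 to 2.45% in siControl, and its part in these calls, like that of the marker levels given above, was not tested. Among inhibitor libraries that share was 1.61 to 2.16% in SAHA, 2.36 to 2.62% in A485 and 2.51 to 3.57% in TSA, against 0.997 to 1.198% in Vehicle, and its part and that of the marker levels in the inhibitor results were not tested either.

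With siKat6a, Obox6 was at 105, 67.4 and 43.8 CPM, against 29.0, 68.7 and 24.2 CPM in siControl, and Obox8 was at 5.41, 3.52 and 1.68 CPM, against 1.58, 17.2 and 3.22 CPM. Both overlapped the controls, with log2 changes of 0.82 ± 0.86 and -1.06 ± 1.45 (edgeR adjusted p = 1 for each). Obox1 was at 0, 0.660 and 0.186 CPM, Obox3 at 0.580, 0.220 and 0 CPM and Obox5 at 1.16, 0.220 and 0 CPM in siKat6a, and each overlapped siControl. MERVL-int was at 20.4, 28.3 and 44.3 CPM in siKat6a, against 23.4, 32.8 and 21.2 CPM in siControl.

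Levels of different members are set side by side here per length of annotated exon. That scaling does not allow for the unlike shares of unique sequence given above. The order of members is therefore uncertain, for Obox1 above all. In TSA, Obox6 averaged 43.3 ± 18.6 CPM per kb, Obox1 27.8 ± 2.16, Obox3 19.1 ± 6.57, Obox5 8.52 ± 8.42, Obox8 4.99 ± 1.85 and Obox7 2.10 ± 0.353 (SD, n = 3). In siKat6b the order was Obox8 at 123 ± 93.5 CPM per kb, Obox6 at 103 ± 58.1 and then Obox1 at 1.07 ± 1.25. In Vehicle, Obox6 averaged 39.0 ± 22.0 CPM per kb and each other member was at 1.30 or less. In Vehicle the Obox6 libraries were all above those of each other member, whereas the libraries overlapped between Obox6 and Obox1 in TSA and between Obox8 and Obox6 in siKat6b.

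**Figure D3:**
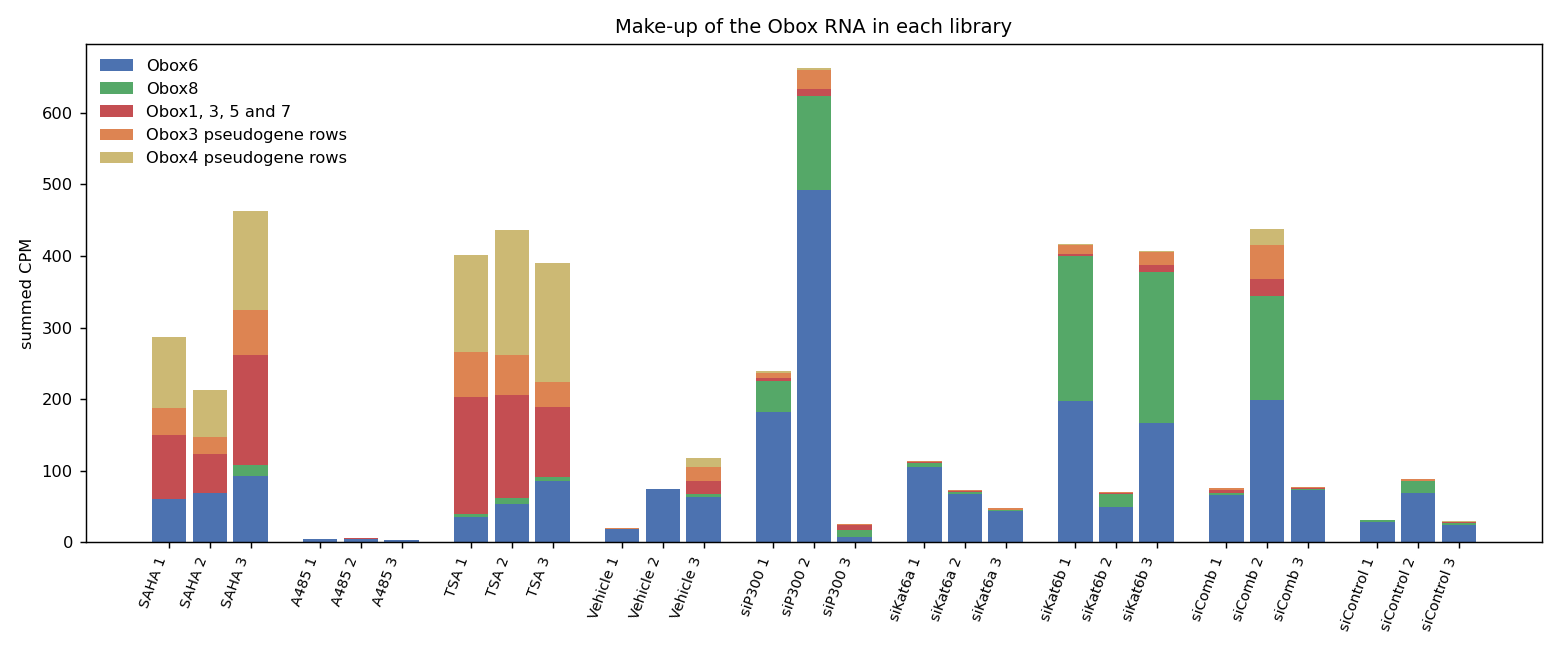
Summed CPM of Obox rows in each library, stacked by member or pseudogene group, one bar per library and treated groups left of their control. In SAHA and TSA the bars are made of Obox1, 3, 5 and 7 and the pseudogene rows as well as Obox6, in A485 they nearly vanish, and the tall bars of the siRNA family are Obox6 and Obox8.

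The share of the members' counts that came from Obox8 is described and was not tested. It was 50.1, 26.0 and 54.6% in siKat6b, 18.7, 20.7 and 37.1% in the libraries labelled siP300 and 3.34, 39.5 and 1.90% in siComb, against 5.14, 20.0 and 11.3% in siControl. It was 0.3001, 0 and 5.79% in SAHA and 1.96, 3.99 and 2.80% in TSA, against 0.976, 0 and 4.02% in Vehicle. The inhibitor family therefore stayed at or below 5.79% in every library, while the siKat6b libraries were all at 26.0% or more.

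Levels across the 9 groups are described and not tested, since Vehicle and siControl differ in handling. For Obox1 and Obox3 the order ran TSA, then SAHA, which overlap each other, and then a gap, with no overlap, to the next group (siKat6b for Obox1 and siComb for Obox3), below which each neighbour overlaps the next. For Obox5 and Obox7 the gap lay between TSA and SAHA. For Obox6 every neighbour in the order from siP300 (227 ± 245 CPM, SD, n = 3) down to siControl (40.6 ± 24.4 CPM) overlapped the next, and the gap lay between siControl and A485 (3.98 ± 1.00 CPM). For Obox8, from siKat6b (144 ± 109 CPM) to A485 (0), no pair of neighbours was separate.

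Pseudogene rows were also higher with the deacetylase inhibitors. Of the 48 rows, 27 had a count in some library and 20 passed the filter in the inhibitor family. With SAHA 15 of the 20 rose, where 20.2% of all genes did, with TSA 17 of 20 rose, where 31.6% did, and 7 of 20 fell with A485, where 24.2% did. A row with few or no counts in Vehicle could pass the filter through the SAHA and TSA libraries alone, so these counts describe the rows that passed and support nothing further. With A485 0 of the 20 rows had groups that did not overlap. Obox3-ps rows summed to 0, 0.564 and 0 CPM in A485, against 0.377, 0 and 19.9 CPM in Vehicle, and Obox4-ps rows were also highest in replicate 3, so the Vehicle level against which A485 was lower lay mostly in that library. The 39 Obox4-ps rows, copies related to Obox4, together reached 98.2, 65.3 and 138 CPM in SAHA and 135, 174 and 165 CPM in TSA, against 0, 0.0912 and 11.96 CPM in Vehicle. All SAHA and TSA libraries were above Vehicle, and Vehicle replicate 3 was again the high control.

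In the siRNA family 6 pseudogene rows were tested. Of these, 3 rose in the libraries labelled siP300 and 2 in siComb, where 19.7% and 19.6% of all genes did. Obox3-ps2, Obox3-ps3, Obox3-ps4 and Obox3-ps5 had 0 counts in siControl and could pass the filter through other libraries alone. These counts therefore describe the rows that passed and support nothing further. The summed Obox4-ps level was 2.13, 2.62 and 0.167 CPM in the libraries labelled siP300, 1.89, 0 and 1.14 CPM in siKat6b and 0, 22.5 and 0 CPM in siComb, against 0.395, 0.0968 and 0.717 CPM in siControl. The siKat6b libraries with over 200 CPM of Obox8 thus held under 2 CPM of Obox4-ps rows, whereas siComb replicate 2, with 145 CPM of Obox8, held 22.5 CPM. How reads were divided among single pseudogene rows is uncertain, since copies can share reads, and the sum is the value to read.

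**Figure D4:**
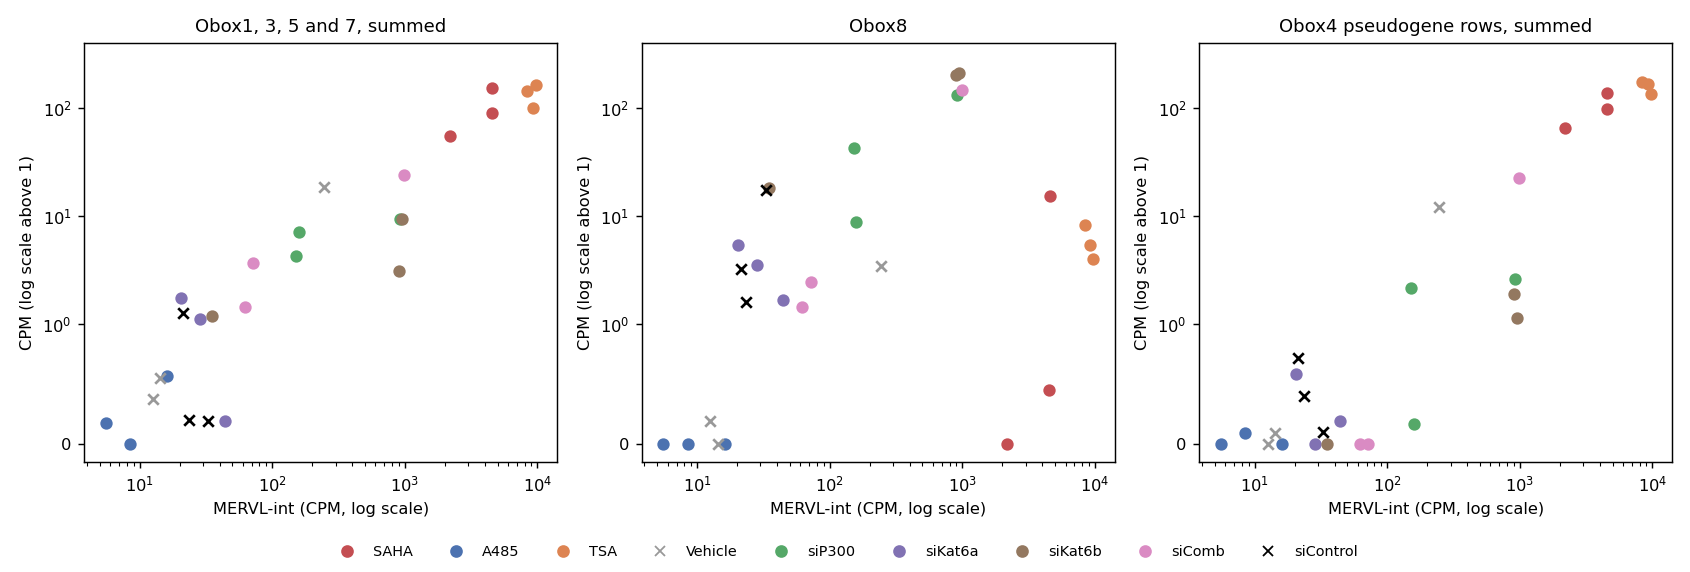
MERVL-int level in CPM on a logarithmic axis against summed Obox1, 3, 5 and 7, Obox8 and summed Obox4-ps rows, in CPM on an axis that is logarithmic above 1, one point per library, controls as crosses. The outer panels climb with MERVL-int into the SAHA and TSA libraries, whereas Obox8 is at 100 CPM or more in 4 siRNA libraries with 899 to 990 CPM of MERVL-int and at 15.1 CPM or less in SAHA and TSA, where MERVL-int is at 2181 CPM or more.

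The 4 libraries of the siRNA family above 100 CPM of Obox8 had MERVL-int at 915 CPM (siP300 replicate 2), 899 and 946 CPM (siKat6b replicates 1 and 3) and 990 CPM (siComb replicate 2), and the other libraries of the family were at 20.4 to 158 CPM. Summed Obox1, Obox3, Obox5 and Obox7 came to 9.40, 3.05, 9.31 and 23.7 CPM in those 4 libraries. In SAHA the sum was 89.3, 55.04 and 153 CPM and in TSA 163, 144 and 98.8 CPM, against 0.377, 0.547 and 18.3 CPM in Vehicle. Obox8 was at 0 to 15.1 CPM in the SAHA and TSA libraries, whose MERVL-int levels were the highest of the series. Without those 4 libraries, which were chosen after their values were seen, 1 member rose in the libraries labelled siP300 and 0 in siComb.

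Likeness to each member was sought among genes with a mean of at least 5 CPM, leaving out MERVL rows, Obox rows and Gm and Rik symbols. By Pearson r of log2(CPM + 1) over the 27 libraries, a description over libraries that share groups and controls, the genes most like Obox1 were Usp17la (r = 0.978), Ercc4 (0.977) and Kdm4dl (0.977), out of 10153 genes compared. For Obox3 they were Usp17la (0.983), Tcstv1 (0.977) and Rfpl4b (0.976), and for Obox5 Cnksr2 (0.913), Nek10 (0.903) and AU015228 (0.900). Obox6 was most like Trim43b (0.894), Spic (0.875) and Trim43c (0.867), and Obox8 most like Ddx60 (0.847), D7Ertd443e (0.836) and Has2os (0.833). Usp17la, a deubiquitinase gene of the 2-cell burst, averaged 317 ± 158 CPM in SAHA and 642 ± 117 CPM in TSA, against 5.83 ± 9.78 CPM in Vehicle. Trim43b averaged 0.228 ± 0.260 CPM in A485, against 68.4 ± 44.1 CPM in Vehicle, and Spic, an Ets-family transcription factor gene, 0.183 ± 0.188 CPM in A485, against 279 ± 71.7 CPM in Vehicle. No gene was sought for Obox2 and Obox7, whose means were under 1 CPM.

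Other lists place the members among genes of the same stages. Of 33 tested genes of the 2-cell burst, 33 rose with SAHA and 33 with TSA, where 20.2% and 31.6% of all genes did. With A485 1 rose and 24 fell, where 21.4% of all genes rose and 24.2% fell, and 6 of the 33 were below every Vehicle library, where 26.4% of all genes were. Arg2, an arginase gene of that list, averaged 962 CPM in SAHA and 1811 CPM in TSA, against 13.7 CPM in Vehicle. In the siRNA family 16 of 26 rose in the libraries labelled siP300, 18 of 26 in siComb, where 19.7% and 19.6% of all genes did, and 0 of 26 were called in siKat6a and siKat6b. The list's median log2 change was 5.17 in the libraries labelled siP300, 0.22 in siKat6a, 4.51 in siKat6b and 5.54 in siComb, or 4.54, 0.19, 4.10 and 5.53 with genes at 0 at their bound, against 0.13, 0.00, 0.02 and 0.09 over all genes. Libraries did not overlap, with the treated group higher, for 15 of 26 genes in the libraries labelled siP300, where 35.3% of all genes did so. The counts were 12 of 26 for siComb (34.8% of all genes), 9 of 26 for siKat6b (11.8%) and 3 of 26 for siKat6a (5.6%). With the treated group lower, 2 of 26 were separate for siKat6a and 0 for each other siRNA. Genes could pass the filter through other libraries alone, so these siRNA values describe the 26 that passed and not the list. Median log2 changes of the list were 5.54 with SAHA, 6.88 with TSA and -5.04 with A485, or -4.43 with its 7 genes at 0 at their bound, against 0.06, 0.08 and -0.06 over all genes.

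The oocyte list, which covers genes known from the oocyte as the maternal Obox genes are, moved in both directions. Of 24 tested, 3 rose and 1 fell with SAHA, 3 rose and 4 fell with A485 and 12 rose and 1 fell with TSA, and of 30 tested, 9 rose and 4 fell in the libraries labelled siP300 and 6 rose and 3 fell in siComb. Ooep, a gene of the oocyte's subcortical maternal complex, fell in each of these comparisons, to 21.6 CPM in SAHA, 10.2 CPM in A485 and 4.01 CPM in TSA, against 46.4 CPM in Vehicle, and to 20.1 CPM in the libraries labelled siP300 and 13.5 CPM in siComb, against 56.4 CPM in siControl. Ooep thus fell in SAHA and TSA, where Obox1 rose. Among 39 other homeobox genes tested, 12 rose and 11 fell with SAHA, 8 rose and 13 fell with A485 and 18 rose and 13 fell with TSA, and of 37, 10 rose and 8 fell in the libraries labelled siP300 and 12 rose and 5 fell in siComb. Set against these lists, the shares of all genes that rose and fell were 20.2% and 14% with SAHA, 21.4% and 24.2% with A485, 31.6% and 26.6% with TSA, 19.7% and 15.6% in the libraries labelled siP300 and 19.6% and 17.1% in siComb. Nanog, a pluripotency factor with a homeodomain, fell with A485, where it averaged 1.42 CPM, against 166 CPM in Vehicle. Esx1 rose with SAHA (16.8 CPM) and TSA (18.5 CPM), against 0.248 CPM in Vehicle.

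The genes that lie among and just beside the Obox genes on chromosome 7 moved in both directions. Of 41 such neighbours, 6 passed the filter in each family, and 2 rose and 1 fell with SAHA, 0 rose and 3 fell with A485, 3 rose and 3 fell with TSA, 1 rose and 2 fell in the libraries labelled siP300, and 1 rose and 3 fell in siComb, with 0 called in siKat6a and siKat6b. Of all genes, 20.2% rose and 14% fell with SAHA, 21.4% and 24.2% with A485 and 31.6% and 26.6% with TSA. These shares were 19.7% and 15.6% in the libraries labelled siP300 and 19.6% and 17.1% in siComb. The 6 neighbours were not tested as a set. Crxos, itself a homeobox gene, averaged 1129 CPM in SAHA, 32.1 CPM in A485 and 467 CPM in TSA, against 2846 CPM in Vehicle, and fell in all 3 (log2 -1.32 ± 0.30, -6.51 ± 0.38 and -2.52 ± 0.32, adjusted p = 0.00415, 1.75e-08 and 1.26e-05). It fell also in siP300 (2160 CPM) and siComb (1641 CPM), against 3747 CPM in siControl. Crxos and Obox6 thus both fell with A485, while with TSA Crxos fell where Obox1, Obox3, Obox5 and Obox7 rose.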

How the data were processed

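Polyadenylated RNA was measured in 27 libraries of pooled mouse morulae. The authors deposited unnormalized gene counts. Per the submitters' processing notes the tools were STAR 2.7.11a, featureCounts, Subread 2.0.6, MultiQC and Scanpy 1.8.2, and the builds mm10 and GRCh38 are named without roles. Not given in the sources used here are the annotation release, strandedness, how pairs were treated and how the 2 MERVL rows of the series table were counted. Of the nonzero counts 84.5% were even, the cause of which was not tested; where both reads of a pair were counted, a floor of 3 counts is fewer fragments. Counts in the sample files and the series table were equal for 27 of 27 libraries, and replicate pairs differed by a chi-square of at least 8.35 per degree of freedom, so none were treated as duplicates.

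CPM used library totals over gene rows, without the MERVL rows. Genes were tested with edgeR 4.0.16 (R 4.3.3, quasi-likelihood, TMM) in 1 fit for 12 inhibitor libraries and 1 for 15 siRNA libraries, on genes that filterByExpr kept (minimum count 10), with Benjamini-Hochberg adjustment over 18299 and 19182 genes. Standard errors were the fold change over the square root of F. On simulated counts for TSA against Vehicle (14523 genes) the test found 7 of 74 genes set to a 1.5-fold change. It found 20 of 67 at 2-fold and 52 of 59 at 4-fold, and 6 of its 85 calls were false. For siKat6b against siControl (15487 genes) it found 13 of 58, 56 of 72 and 63 of 68 at these folds. There 9 of its 141 calls were false. Whether these shares hold for members with few counts in Vehicle or siControl was not tested. Alternatives were DESeq2 1.42.0, its size factors, library size alone, no filter, halved counts, a replicate block, the groups compared only, leaving out each library and, added after seeing the data, leaving out 4 libraries high in MERVL-int.

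The members, lists and tests were chosen with earlier results of these data known. All members were named, with the 3 genes most like each member and up to 3 genes per list (adjusted p under 0.05, at least 10 CPM in a group), of which not all are written out. Positions, exon lengths, transcripts and cluster neighbours came from GENCODE vM21 and promoters from RefSeq GRCm38.p6. The shared promoter run and the local alignments (Biopython 1.88) were chosen after the values, and a first global alignment, were seen. Same-numbered replicates were not treated as pairs in the main fits. Their correlations exceeded 0.1 in 4 of 18 cases in the inhibitor family and 4 of 30 in the siRNA family. Of the siRNA 4, 3 are the whole set for siP300 with siComb (0.203, 0.569 and 0.194), which were not compared with each other. Vehicle with SAHA gave -0.050, 0.219 and 0.270 for replicates 1, 2 and 3. No treated group exceeded 0.1 with its control in all 3 replicates. Other steps used matplotlib 3.10.9, SciPy 1.17.1, numpy 2.4.6, pandas 2.3.3 and Python 3.11.15.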

Additional observations from a re-analysis of the deposited data

How the results depend on the processing

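The number of Obox genes called kept within 1.5 times in most settings and moved in these. With A485 it was 4, and it was 2 with DESeq2 size factors, 2 with halved counts (Obox3 and Obox6 both times) and 1 with only the groups compared (Obox6). With SAHA it was 2, and 4 without a filter. For siP300 it was 1, and 2 with library size alone, 4 without a filter, 2 with halved counts and 2 with only the groups compared (Obox3 and Obox8). For siKat6b it was 0, and 2 without a filter (Obox6 and Obox8). For siComb it was 2, and 5 without a filter, 1 with the replicate block (Obox5), 1 with only the groups compared (Obox6), 1 with DESeq2 and 0 without the 4 libraries highest in MERVL-int. Over all genes the count for siKat6a was 0, with 409 genes at an unadjusted p under 0.05, 15 without a filter and 2 with DESeq2. For siKat6b it was 4, and 2 with DESeq2 size factors, 2 with the replicate block, 2 with halved counts, 757 without a filter, 60 with only the groups compared and 237 with DESeq2. The causes of these shifts were not tested.

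Leaving out 1 library at a time gave 2 to 5 Obox calls with SAHA, 1 to 5 with A485, 4 to 5 with TSA, 0 to 1 for siP300, 0 to 0 for siKat6a and siKat6b and 0 to 2 for siComb. Over all genes it gave 4695 to 5229 calls with SAHA, 7059 to 8004 with A485, 9653 to 9968 with TSA, 4715 to 6506 for siP300, 0 to 0 for siKat6a, 1 to 163 for siKat6b and 5222 to 6832 for siComb.

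Log2 changes that took the opposite sign were of values that had not passed the test, with the exception of Obox1 with A485. Leaving out 1 library at a time gave log2 changes of -6.77 (without A485 replicate 2) to 2.44 (without Vehicle replicate 3, which leaves the controls at 0 counts) for Obox1 with A485, -0.18 (without Vehicle replicate 1) to 0.56 for Obox6 with TSA, where leaving out TSA replicate 3 gave -0.17, and -2.45 (without SAHA replicate 3) to 5.71 for Obox8 with SAHA. In siKat6a the ranges were -0.96 to 1.35 for Obox1, where leaving out siControl replicate 2 gave -0.09, -1.56 to 1.36 for Obox3, where leaving out siKat6a replicate 3 gave 0.36, -1.57 to 0.51 for Obox8 and -0.10 to 0.43 for MERVL-int. They were -0.068 to 3.68 for Obox3 in siKat6b and -2.19 to 4.10 for Obox8 in siComb. With the replicate block Obox3 in siKat6a was at 0.10, and without the 4 libraries Obox3 in siKat6b was at -4.88 and Obox8 in siComb at -2.19. The replicate block, which pairs nothing the labels say is shared, moved no other count of Obox calls by over 1.5 times. Depth limits Obox7 and, outside SAHA and TSA, Obox1, Obox3 and Obox5, whose controls hold a few counts each. Scaling by library size alone moved the share of calls that were higher from 55.8 to 76.9% for siP300 and from 53.5 to 70.3% for siComb.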

Other observations

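Within the groups labelled siP300 and siComb, the library with the lowest Ep300 had the highest Obox6 and Obox8. In siP300 Ep300 was at 12.9 CPM in replicate 2, with 492 CPM of Obox6 and 131 CPM of Obox8, and at 35.9 CPM in replicate 3, with 8.01 and 8.84 CPM. In siComb Ep300 was at 16.3 CPM in replicate 2, with 199 and 145 CPM, and at 28.5 and 33.4 CPM in the other libraries, with 66.5 and 72.6 CPM of Obox6. The siKat6b libraries high in Obox8 had Ep300 at 27.98 and 26.6 CPM, against 27.8 CPM in the remaining one. In siKat6a the library with the lowest Ep300, replicate 3 (23.2 CPM), had the lowest Obox6 (43.8 CPM) and Obox8 (1.68 CPM) of its group. In siControl Ep300 was lowest in replicate 1 (22.0 CPM), while Obox6 and Obox8 were highest in replicate 2. These values were picked out after they were seen and carry no test.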
